A study of Mus musculus with 6 samples.

Results

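The potassium channel genes of the mouse trigeminal ganglion were taken as the protein-coding genes whose symbol starts with Kcn, which gave 82 of the 16415 genes in the deposited table. The trigeminal ganglion is the sensory ganglion of the head, and the table covers bulk messenger RNA from 6 libraries, 3 labelled SETDB2-up and 3 labelled NC-up. Every library has a wild-type genotype in the labels, which spell out neither treatment name, give no age and do not say how either treatment was given. Nothing in the labels says that the numbered libraries came from separate animals, so the p-values speak only of the spread among these libraries. RefSeq lists 94 protein-coding Kcn genes, and the 12 others were not analysed here.

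Potassium channels let potassium leave a neuron and so hold its resting potential, end its action potentials and set how often it fires. Their alpha subunits form the pore as tetramers or, in the K2P leak channels, as dimers, and beta subunits, KChIPs and KCNE proteins change gating and traffic to the membrane. In trigeminal neurons the voltage-gated Kv channels, the M-current channels of the KCNQ family, the K2P channel TRESK and the large-conductance BK channels limit excitability, and in satellite glia the inward rectifier Kir4.1 takes up potassium around the cell bodies. Loss-of-function variants of TRESK have been found in human migraine with aura, and openers of ATP-sensitive and BK channels provoke headache in people.

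Setdb2, the gene named by the treatment from a family of enzymes that methylate lysine 9 of histone H3 (gene 239122), had 113, 97.6 and 104 normalised reads in SETDB2-up libraries 1 to 3, against 69.9, 58.4 and 71.5 in NC-up libraries 1 to 3 (log2 fold change 0.65 ± 0.19 SE, adjusted p = 0.0253 by limma). The groups did not overlap. Its call was lost without NC-up library 2 (0.56) or without SETDB2-up library 1 (0.60), 2 (0.70) or 3 (0.66), with adjusted p between 0.0276 and 0.141 over the libraries left out in turn. Normalised reads are counts scaled by the authors, with the same factor for every gene of a library. Recovered whole reads summed to between 20355707 and 23501386 in SETDB2-up and between 19334997 and 23395693 in NC-up.

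The sequences 5′ of the genes with the largest fold changes among the members that passed the test, Kcnh5 and Kcnh7, show what lies next to the starts of these genes. Both are the 250 bases before the gene start (RefSeq, GRCm38.p6), read 5′ to 3′ on the minus strand. Capitals mark CACCC or its reverse complement GGGTG, a core that Krüppel-like factors such as Klf4 bind.
Kcnh5, chr12:75177333-75177582: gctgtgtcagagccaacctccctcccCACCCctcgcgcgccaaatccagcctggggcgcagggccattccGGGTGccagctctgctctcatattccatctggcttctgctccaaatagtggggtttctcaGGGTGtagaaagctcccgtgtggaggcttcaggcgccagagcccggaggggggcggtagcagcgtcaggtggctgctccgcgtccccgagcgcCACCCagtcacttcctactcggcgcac
Kcnh7, chr2:63184288-63184537: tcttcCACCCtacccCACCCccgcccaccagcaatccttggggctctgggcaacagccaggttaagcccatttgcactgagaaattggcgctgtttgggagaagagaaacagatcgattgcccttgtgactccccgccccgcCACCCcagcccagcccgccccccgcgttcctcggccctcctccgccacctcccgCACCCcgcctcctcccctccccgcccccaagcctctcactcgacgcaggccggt
Each stretch held 4 such matches and 16 CpG dinucleotides, with a GC content of 65.6% in Kcnh5 and 67.6% in Kcnh7. On either strand CACCC was present in 44 of the 59 potassium channel genes with a RefSeq window (74.6%) and in 57.6% of the 12869 genes with such a window among all tested. CCGCCC, another GC-rich motif searched on both strands, was present in 50.8% of those members and 55.3% of all windows. Of the members that rose, 3 of 4 with a window held CACCC, and of those that fell, 4 of 6. Over all called genes with a window the shares were 52.5% of those that rose and 64.6% of those that fell. Not every window lies at the gene start of the deposited table: that of Kcnip4 is 239463 bp away and that of Kcnh2 22093 bp. These matches describe the letters of the windows only.

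All 82 members had reads in every library, with at least 8 reads in each, and all passed the filter on low values. Per kilobase of annotated exon the most abundant was Kcnab2, the Kv beta 2 subunit that joins Kv1 channels on axons, at 5074 normalised reads per kb in SETDB2-up and 5487 in NC-up. Next came Kcna1, the Kv1.1 channel that dampens firing in sensory neurons, at 3756 in SETDB2-up and 3567 in NC-up. With Kcnk1, the weakly conducting K2P channel TWIK-1, these genes held 39.0% of the summed level per kb of all members. The first 10 held 66.2%, and 38 of the 82 lay above the median level per kb of all genes tested (103). Together the members took 0.670% to 0.698% of normalised reads in SETDB2-up libraries and 0.673% to 0.706% in NC-up libraries, so their summed share overlapped between the groups.

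**Figure D1:**
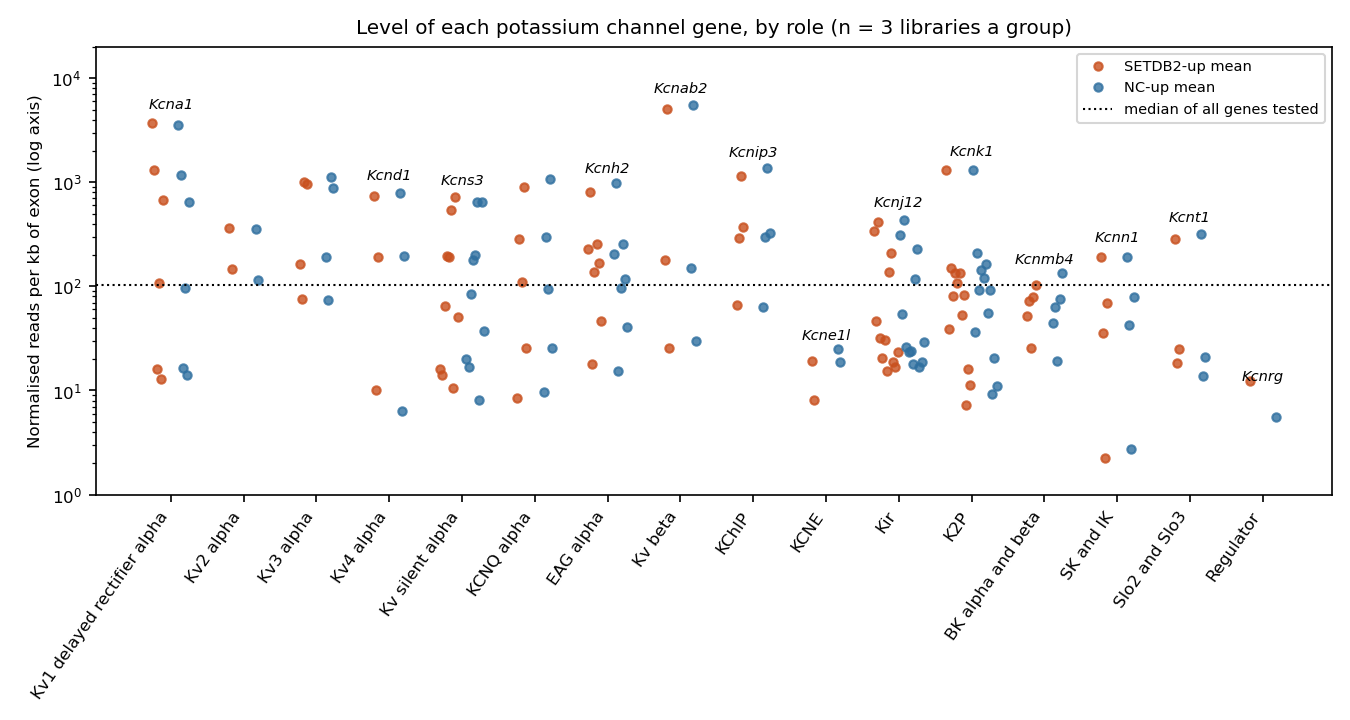
Mean level of each of the 82 potassium channel genes in normalised reads per kb of exon (log axis), by role, with the SETDB2-up mean (orange) left of the NC-up mean (blue) of 3 libraries each. The most abundant gene is named for most roles, the dotted line marks the median of all genes tested (103), and Kcnab2 and Kcna1 stand highest in both groups.

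In SETDB2-up, 6 potassium channel genes rose and 7 fell at a limma adjusted p under 0.05, together 13 of 82 (15.9%), beside 16.4% of all 16387 genes tested (7.71% higher and 8.71% lower). The genes that rose were Kcnh5, Kcnh7, Kcnv1, Kcnb2, Kcnab1 and Kcnip4, and those that fell included Kcnk12, Kcnmb4, Kcns1, Kcnh2, Kcnip3 and Kcnc1. By edgeR on recovered reads 6 members rose and 8 fell (16.4% of all genes called), and by DESeq2 7 and 8 (16.8%), the 13 genes among them in both. The share called was near the background, so the family did not stand apart from other genes by its count. Sizes were small, from 1.15-fold to 1.44-fold with a median of 1.20-fold. The median log2 fold change was -0.02 over the members and 0.00 over all genes, and the median size regardless of direction was 0.19 and 0.17. Libraries of the groups did not overlap in 30 members (36.6%), 16 above and 14 below NC-up, beside 33.3% of all genes (16.8% above and 16.4% below). In bulk tissue fewer cells of a type and less RNA per cell cannot be told apart.

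**Figure D2:**
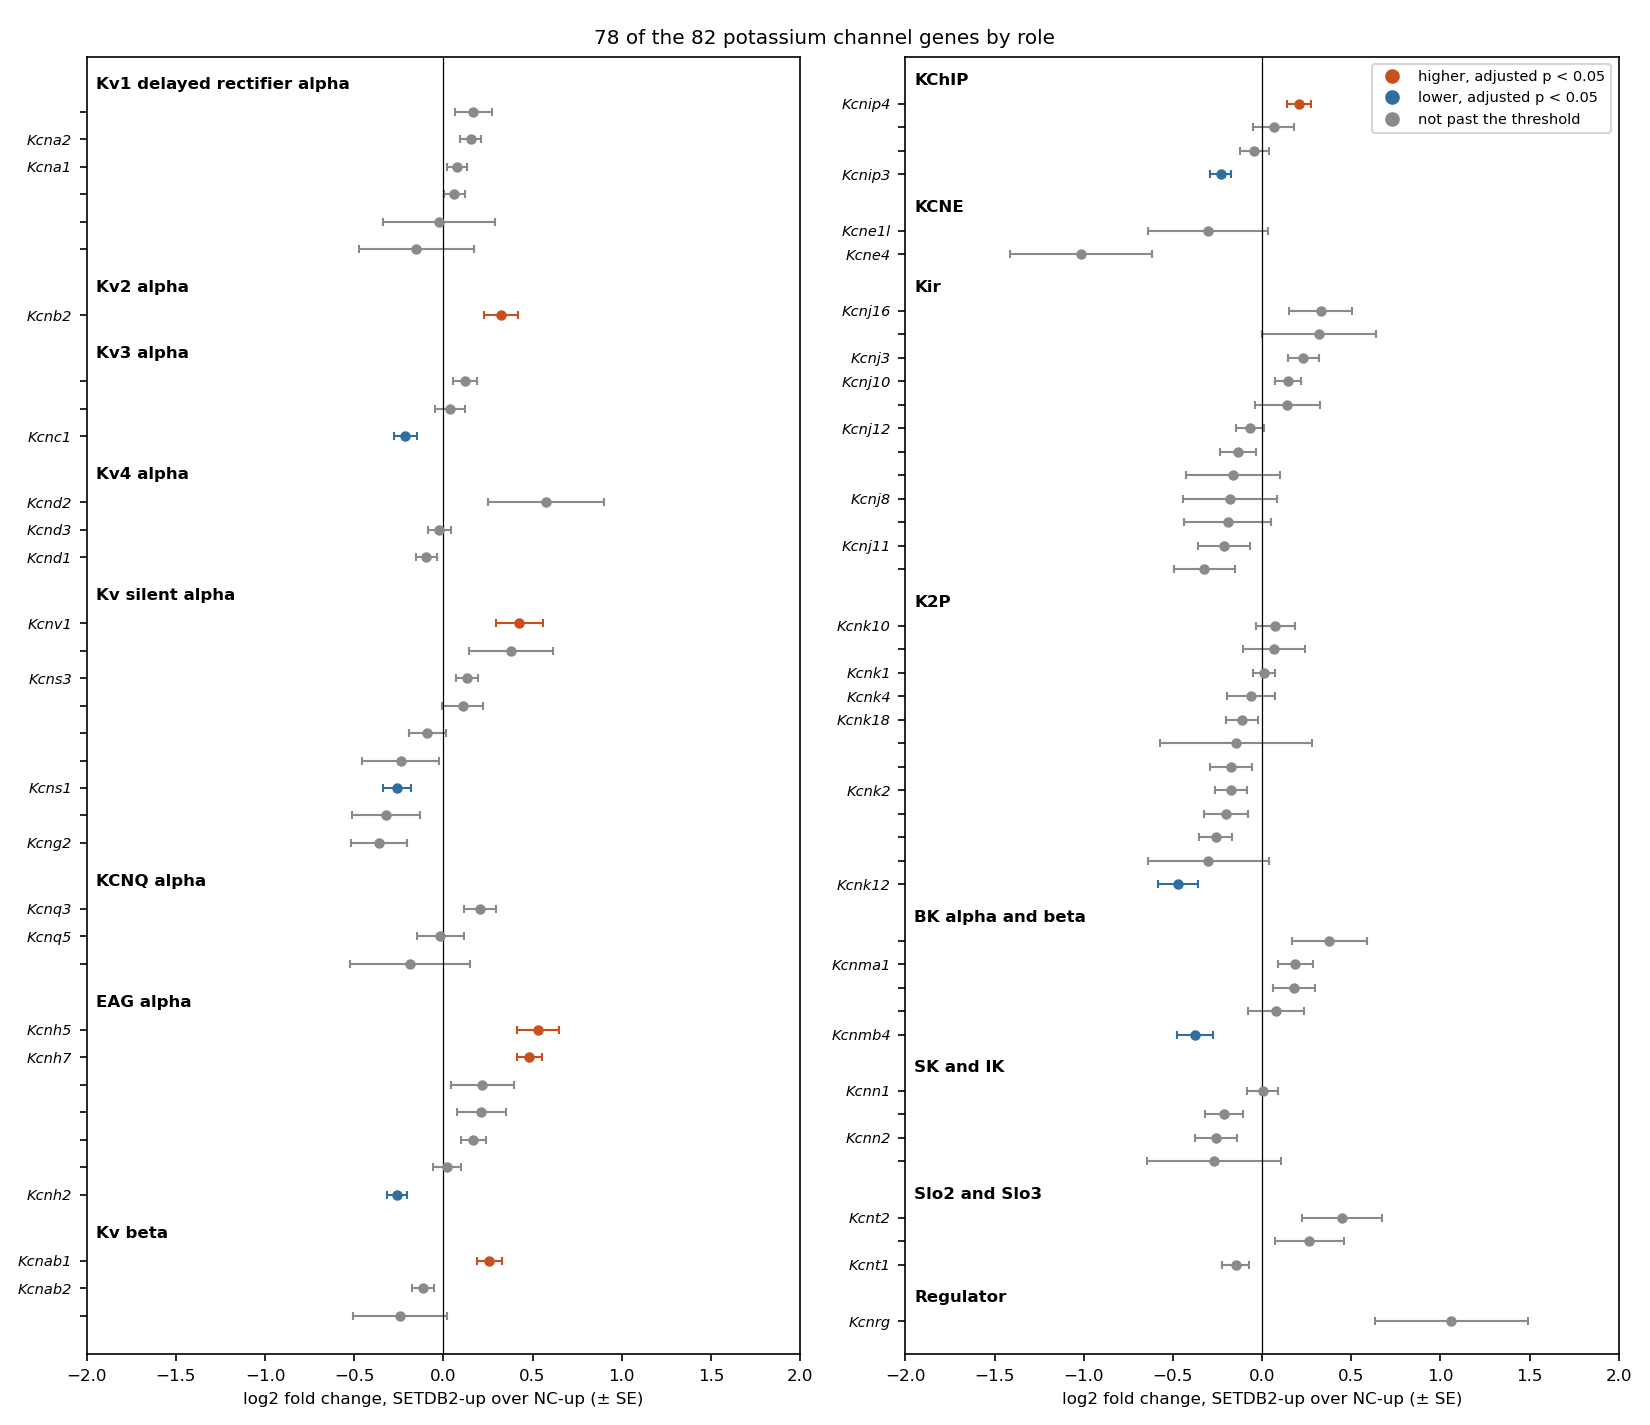
Log2 fold change, SETDB2-up over NC-up, of 78 of the 82 genes grouped by role, with bars for the standard error and names for some of them. Genes that passed the test (orange higher, blue lower) lie on both sides of 0, at up to 1.44-fold.

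The ether-à-go-go (EAG) family encodes slowly gated Kv channels that set resting potential and firing. It held the strongest rises among the called members and also a fall: 2 of 7 genes rose and 1 fell. Counts by family here and below describe single genes and set no family apart. Of all genes tested, 7.71% were higher and 8.71% lower. Kcnh7, which encodes the erg3 channel Kv11.3 (gene 170738, chromosome 2, 62693410 to 63184287, minus strand, GRCm38), had 2706, 2583 and 2298 normalised reads in SETDB2-up, against 1724, 1753 and 1953 in NC-up. Its means were 2529 ± 209 in SETDB2-up and 1810 ± 125 in NC-up (SD, n = 3 each). On the log2 scale the difference was 0.48 ± 0.07 (SE; adjusted p = 0.000212 by limma). Every SETDB2-up library lay above every NC-up library, with SETDB2-up library 3 the nearest to NC-up.

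Kcnh5, which encodes the eag2 channel Kv10.2 (gene 238271, chromosome 12, 74897217 to 75177332, minus strand), had 613, 608 and 463 normalised reads in SETDB2-up, against 344, 369 and 451 in NC-up (log2 fold change 0.53 ± 0.12 SE, adjusted p = 0.00545 by limma). SETDB2-up libraries 1 and 2 were far above NC-up, while library 3 was just above the highest NC-up library. Without SETDB2-up library 1 the fold change was 0.46 and the call was lost (adjusted p = 0.0582), in a range of 0.000234 to 0.54 over 16 alternatives. Kcnh2, which encodes erg1 (Kv11.1), the channel behind the cardiac repolarising current IKr (gene 16511, chromosome 5, 24319589 to 24351684, minus strand), went the other way. It had 3760.0, 4006 and 4088 in SETDB2-up, against 4563, 4852 and 4775 in NC-up (log2 fold change -0.26 ± 0.06 SE, adjusted p = 0.00455 by limma), and the groups did not overlap.

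The other EAG genes did not pass the test. Kcnh1, the eag1 channel Kv10.1, had 1597, 1641 and 1827 in SETDB2-up, against 1455, 1565 and 1481 in NC-up (0.17 ± 0.07 SE, adjusted p = 0.102 by limma), with no overlap. Kcnh8 (elk1) stood at 0.21, Kcnh3 (elk2) at 0.22 and Kcnh6 (erg2) at 0.02 on the log2 scale. A gene on the opposite strand had at least 4 times the value of Kcnh3. Summed per kb, the family was at 1635 to 1721 in SETDB2-up libraries and 1643 to 1740 in NC-up libraries, so the rises and the fall left a total that overlapped between the groups.

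**Figure D3:**
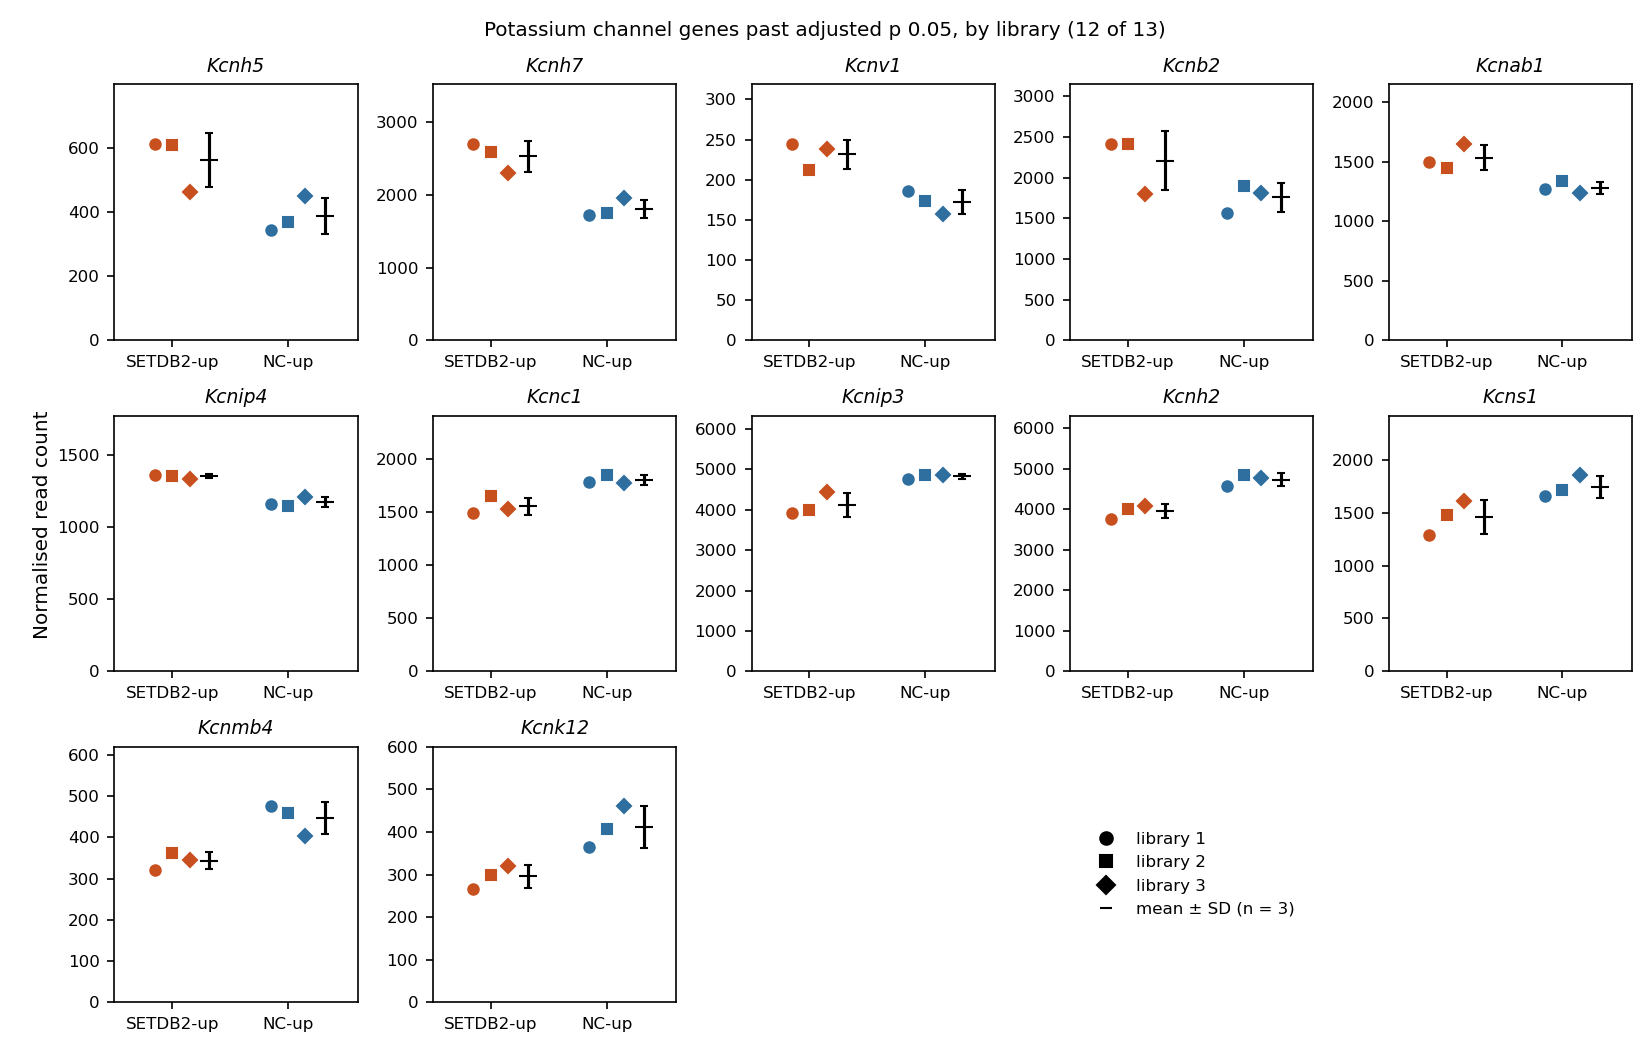
Normalised reads in each library for 12 of the 13 potassium channel genes that passed the test, SETDB2-up left of NC-up, with black marks for the mean and SD (n = 3). Apart from Kcnb2 the groups do not overlap in any panel, and SETDB2-up library 3 (diamonds) is the closest to the NC-up mean in 8 of the 12.

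Among Kv2 channels and the silent subunits that join them, 2 genes rose and 1 fell. Kcnb2, which encodes the delayed rectifier Kv2.2 (gene 98741, chromosome 1, 15286925 to 15723751, plus strand), had 2421, 2415 and 1795 normalised reads in SETDB2-up, against 1564, 1899 and 1811 in NC-up (log2 fold change 0.32 ± 0.10 SE, adjusted p = 0.0278 by limma). It was the single called member whose groups overlapped: SETDB2-up library 3 lay below NC-up libraries 2 and 3. The call was lost without SETDB2-up library 1 (0.25, adjusted p = 0.18) or 2 (0.25, 0.131), and without NC-up library 1 (0.24, 0.116) or 3 (0.35, 0.0579), in a range of 9.75e-05 to 0.939.

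The silent subunits carry no current alone and alter Kv2 channels when they assemble with them. Kcnv1, which encodes Kv8.1 (gene 67498, chromosome 15, 45096086 to 45115912, minus strand), had 245, 212 and 238 in SETDB2-up, against 186, 173 and 157 in NC-up (log2 fold change 0.42 ± 0.13 SE, adjusted p = 0.0336 by limma). All SETDB2-up libraries were higher. Kcns1, which encodes Kv9.1, whose human gene has been linked to chronic pain (gene 16538, chromosome 2, 164163619 to 164171113, minus strand), had 1292, 1477 and 1609.8 in SETDB2-up, against 1658, 1714 and 1859 in NC-up (log2 fold change -0.26 ± 0.08 SE, adjusted p = 0.0277 by limma). All SETDB2-up libraries were lower, and library 3 came close to NC-up library 1.

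Both silent-subunit calls depended on single libraries. For Kcnv1 the call was lost without SETDB2-up library 1 (0.38, adjusted p = 0.167), 2 (0.49, 0.0542) or 3 (0.40, 0.0735) and without NC-up library 2 (0.43, 0.0698) or 3 (0.36, 0.0998), in a range of 0.0247 to 0.356. For Kcns1 it was lost without SETDB2-up library 1 (-0.18, adjusted p = 0.197) or 2 (-0.27, 0.0595) and without NC-up library 2 (-0.27, 0.069) or 3 (-0.21, 0.122), in a range of 0.0025 to 0.959. The other 7 silent subunits did not pass. Kcns3 (Kv9.3), the most abundant of them per kb, had 2242, 2167 and 2391 in SETDB2-up, against 2032, 2084 and 2088 in NC-up, and the groups did not overlap (0.13 ± 0.06 SE, adjusted p = 0.155 by limma). Kcng2 (Kv6.2) had 165, 182 and 237 in SETDB2-up, against 281, 269 and 201 in NC-up, with overlap (-0.36 ± 0.16 SE, adjusted p = 0.121 by limma); without SETDB2-up library 3 its fold change was -0.51 (adjusted p = 0.026) and without NC-up library 3 it was also -0.51 (0.0423).

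Of the cytoplasmic subunits, 1 Kv beta gene of 3 rose, and of the 4 KChIP genes, which encode calcium-binding partners of Kv4 channels, 1 rose and 1 fell. Kcnab1, which encodes the Kv beta 1 subunit that can speed inactivation of Kv1 channels (gene 16497, chromosome 3, 64949212 to 65378225, plus strand), had 1500.0, 1447 and 1652 in SETDB2-up, against 1273, 1335 and 1234 in NC-up (log2 fold change 0.26 ± 0.07 SE, adjusted p = 0.0166 by limma). The groups did not overlap, and SETDB2-up library 3 was the highest. The call was lost without SETDB2-up library 1 (0.27, adjusted p = 0.0569) or NC-up library 3 (0.23, 0.0672), in a range of 0.00566 to 0.361. Kcnab2, the most abundant member, had 26461, 27977 and 30473 in SETDB2-up, against 28573, 31587 and 31659.9 in NC-up (-0.11 ± 0.06 SE, adjusted p = 0.231 by limma), with overlap. Its fold change was -0.07 without SETDB2-up library 1 (adjusted p = 0.587) and -0.17 without library 3 (adjusted p = 0.0339).

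Kcnip3, which encodes KChIP3, also known as the calcium-dependent repressor DREAM (gene 56461, chromosome 2, 127456498 to 127522094, minus strand), had 3910.1, 3982 and 4446 in SETDB2-up, against 4759.8, 4848 and 4868 in NC-up (log2 fold change -0.23 ± 0.06 SE, adjusted p = 0.0115 by limma). The NC-up libraries lay close together and every SETDB2-up library was below them. Kcnip4, which encodes KChIP4 (gene 80334, chromosome 5, 48389503 to 49525122, minus strand), had 1365, 1358 and 1338 in SETDB2-up, against 1161, 1146 and 1211 in NC-up (log2 fold change 0.21 ± 0.07 SE, adjusted p = 0.0377 by limma), again with no overlap. Kcnip1 stood at 0.06 ± 0.11 and Kcnip2 at -0.04 ± 0.08 on the log2 scale (SE, limma adjusted p = 0.743 and 0.762), so neither had a clear direction. Only Kcnip3 and Kcnip4 of this family passed, in opposite directions.

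Library by library, the Kcnip3 call was lost without SETDB2-up library 1 (-0.20, adjusted p = 0.0773) or 2 (-0.21, 0.0558) or NC-up library 2 (-0.23, 0.0514), in a range of 0.000553 to 0.488. The Kcnip4 call was lost without SETDB2-up library 1 (0.20, adjusted p = 0.134) or 2 (0.20, 0.112) and without NC-up library 1 (0.20, 0.0852), 2 (0.19, 0.115) or 3 (0.23, 0.0525), in a range of 0.0223 to 0.954. None of the 3 Kv4 channels these subunits join passed by limma, edgeR or DESeq2, or at an unadjusted p under 0.05. Kcnd1 (Kv4.1) had 3669, 3935 and 4089.6 in SETDB2-up, against 4154, 4165 and 4164 in NC-up (-0.10 ± 0.06 SE, adjusted p = 0.276 by limma). Kcnd3 (Kv4.3), which carries A-type current in small sensory neurons, had 1748, 1868 and 1944 in SETDB2-up, against 1779.8, 1981 and 1885 in NC-up (-0.02 ± 0.07 SE, adjusted p = 0.856 by limma). Kcnd2 (Kv4.2) was low, at 61.7, 28.5 and 66.0 in SETDB2-up and 35.0, 24.9 and 39.3 in NC-up (0.57 ± 0.33 SE, adjusted p = 0.248 by limma). Its fold change was 0.95 without SETDB2-up library 2, the lowest of that group (adjusted p = 0.0691), and 0.36 without library 3 (0.551).

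In the KCNQ family Kcnq3 (Kv7.3) had 1693, 1810.5 and 1356 in SETDB2-up, against 1297, 1495 and 1397 in NC-up (0.21 ± 0.09 SE, adjusted p = 0.122 by limma). SETDB2-up libraries 1 and 2 were above NC-up and library 3 was inside its range; without library 3 the fold change was 0.33 (adjusted p = 0.00255), and without library 2 it was 0.12 (0.466). Kcnq5 (Kv7.5) stood at -0.02 on the log2 scale.

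Among Kv3 channels, which let neurons fire fast by ending spikes quickly, 1 of 4 fell. Kcnc1, which encodes Kv3.1 (gene 16502, chromosome 7, 46396219 to 46438706, plus strand), had 1493, 1651 and 1528 in SETDB2-up, against 1786, 1857 and 1774 in NC-up (log2 fold change -0.21 ± 0.06 SE, adjusted p = 0.0291 by limma). The groups did not overlap. Its call was lost without SETDB2-up library 1 (-0.18, adjusted p = 0.145) and without NC-up library 1 (-0.22, 0.0544), 2 (-0.19, 0.108) or 3 (-0.23, 0.0573), in a range of 0.0103 to 0.671. Kcnc4 (Kv3.4), an inactivating channel of nociceptors, had 3248, 3603 and 3833 in SETDB2-up, against 3119, 3349 and 3337 in NC-up (0.12 ± 0.06 SE, adjusted p = 0.219 by limma).

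Of the 12 K2P leak channels, 1 fell and none rose in limma (0 higher at an unadjusted p under 0.05, and 0 higher by edgeR or DESeq2, which gave 2 and 1 lower). Kcnk12, which encodes the halothane-inhibited channel THIK-2 (gene 210741, chromosome 17, 87745821 to 87797994, minus strand), had 266, 300.1 and 321 in SETDB2-up, against 364, 407 and 462 in NC-up (log2 fold change -0.47 ± 0.11 SE, adjusted p = 0.00874 by limma). Every SETDB2-up library was lower than every NC-up library. Without SETDB2-up library 1 the call was lost (-0.40, adjusted p = 0.0747), as it was without NC-up library 3 (-0.38, 0.0506), in a range of 0.00151 to 0.713. Kcnk3, the acid-sensitive TASK-1, missed the threshold at 492, 558 and 570.2 in SETDB2-up, against 597, 680.0 and 663 in NC-up, with no overlap (-0.26 ± 0.09 SE, adjusted p = 0.0552 by limma). It passed in 4 of the 16 alternatives, edgeR among them (adjusted p = 0.0478), in a range of 0.0262 to 0.743.

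Kcnk18, which encodes TRESK, had 461, 482 and 449 in SETDB2-up, against 495, 487 and 523 in NC-up (-0.11 ± 0.09 SE, adjusted p = 0.424 by limma). Its groups did not overlap, with the SETDB2-up libraries lower, but the difference did not pass the test. The mechanically and thermally gated channels also did not pass. Kcnk2 (TREK-1) had 518, 528 and 551 in SETDB2-up, against 661, 586 and 556 in NC-up (-0.17 ± 0.09 SE, adjusted p = 0.205 by limma). Kcnk4 (TRAAK) stood at -0.06 and Kcnk10 (TREK-2), abundant in nociceptors, at 0.07 on the log2 scale. Kcnk1 had 2902, 2804 and 3115 in SETDB2-up, against 2778, 2878 and 3095 in NC-up (0.01 ± 0.06 SE), and the groups overlapped.

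Among the genes of BK channels, which open with calcium and voltage, the neuronal beta 4 subunit fell and the other 4 did not pass. Kcnmb4 (gene 58802, chromosome 10, 116417861 to 116473859, minus strand), which encodes the subunit that slows BK gating, had 321, 362 and 344 in SETDB2-up, against 477, 458 and 402 in NC-up (log2 fold change -0.38 ± 0.10 SE, adjusted p = 0.017 by limma). All SETDB2-up libraries were lower. The call was lost without SETDB2-up library 1 (-0.33, adjusted p = 0.108) and without NC-up library 1 (-0.33, 0.0578) or 2 (-0.36, 0.0623), in a range of 0.00677 to 0.28. Kcnma1, the BK pore, had 956, 939 and 726 in SETDB2-up, against 692, 833 and 765 in NC-up (0.19 ± 0.10 SE, adjusted p = 0.217 by limma). SETDB2-up library 3 again lay within the NC-up range, and without it the fold change was 0.32 (adjusted p = 0.0133). It was 0.12 without SETDB2-up library 1 (adjusted p = 0.599) or NC-up library 1 (0.487). Kcnmb1 and Kcnmb2 were higher without overlap and did not pass, at 0.18 and 0.38 on the log2 scale.

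An RNA on the opposite strand at the start of Kcnmb4 fell further than Kcnmb4 itself. Kcnmb4os2 (chromosome 10, 116473163 to 116474987, plus strand), which shares 697 bp of locus with Kcnmb4, had 95.0, 117 and 95.5 in SETDB2-up, against 248, 279 and 215 in NC-up (log2 fold change -1.26 ± 0.15 SE, adjusted p = 3.05e-05 by limma). Kcnmb4os1, inside the locus near its other end, had 30.4, 21.4 and 12.5 in SETDB2-up, against 36.0, 43.1 and 40.2 in NC-up (-0.94 ± 0.35 SE, adjusted p = 0.0723 by limma). Neither group pair overlapped. How the counting treated strand is unknown here, so reads of these genes and of Kcnmb4 in the shared bases cannot be told apart.

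No Kv1 gene passed the limma test, and at an unadjusted p under 0.05 only Kcna2 did. Kcna2 (Kv1.2), which sits beside the nodes of myelinated axons, had 16034, 16549 and 14451 in SETDB2-up, against 13773, 14228 and 14245 in NC-up (0.15 ± 0.06 SE, adjusted p = 0.0776 by limma). SETDB2-up libraries 1 and 2 were well above NC-up and library 3 just above it. By DESeq2 Kcna2 passed (adjusted p = 0.0436), by edgeR no Kv1 gene did, and without SETDB2-up library 3 the fold change was 0.21 (adjusted p = 0.00462 by limma). Kcna1 had 17259, 18287 and 18311 in SETDB2-up, against 16196, 17718 and 17244 in NC-up (0.07 ± 0.06 SE, adjusted p = 0.39 by limma), with overlap. Summed per kb the Kv1 genes were at 5728 to 6042 in SETDB2-up libraries and 5308 to 5691 in NC-up libraries, just without overlap.

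The 12 inward rectifiers held no call in limma, edgeR or DESeq2, and 1 of them, Kcnj3, had an unadjusted p under 0.05. Kcnj3, a G-protein-gated subunit (GIRK1), had 688, 735 and 723 in SETDB2-up, against 581, 580.4 and 669.5 in NC-up (0.23 ± 0.09 SE, adjusted p = 0.0688 by limma), with no overlap. Without NC-up library 3 its fold change was 0.30 (adjusted p = 0.0372). Kcnj10, the satellite glial Kir4.1, had 1909, 1768 and 1901 in SETDB2-up, against 1854, 1606 and 1591 in NC-up (0.15 ± 0.07 SE, adjusted p = 0.169 by limma), with overlap. Its partner Kcnj16 (Kir5.1) had 118, 131 and 108 in SETDB2-up, against 107, 83.3 and 93.9 in NC-up (0.33 ± 0.18 SE, adjusted p = 0.22 by limma). Kcnj12 (Kir2.2), the most abundant per kb, stood at -0.07. Satellite glial markers summed to 95406 to 109177 normalised reads in SETDB2-up libraries and 107908 to 111935 in NC-up libraries, with 1 of 10 higher and 1 lower, and their part in these values was not tested.

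The ATP-sensitive channel is built from Kcnj8 (Kir6.1) or Kcnj11 (Kir6.2) with the sulfonylurea receptors Abcc8 and Abcc9, and none of these genes passed the test. Kcnj11 had 165, 167 and 186 in SETDB2-up, against 165, 221 and 219 in NC-up (-0.21 ± 0.15 SE, adjusted p = 0.349 by limma). Kcnj8 was low, at 32.3, 45.8 and 51.8 in SETDB2-up and 46.6, 48.8 and 49.2 in NC-up (-0.18 ± 0.26 SE). Abcc8 had 328, 349 and 336 in SETDB2-up, against 386, 385 and 375 in NC-up (-0.18 ± 0.10 SE, adjusted p = 0.239 by limma), while Abcc9 stood at 0.27 ± 0.18 (SE).

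The calcium-activated small- and intermediate-conductance channels, the sodium-activated channels and Kcnu1 (Slo3) gave no limma call either. None of these 7 genes passed by edgeR or DESeq2 (1 had an unadjusted p under 0.05, Kcnn2). Kcnn2 (SK2), which shapes the potential after a spike, had 257, 287 and 256 in SETDB2-up, against 284, 362 and 316 in NC-up (-0.26 ± 0.12 SE, adjusted p = 0.145 by limma). Kcnn1 (SK1), the most abundant per kb of its group, stood at 0.00. Kcnt1 (Slack), a sodium-activated channel of sensory neurons, had 2529.8, 3006 and 2643 in SETDB2-up, against 3012, 3318 and 2729.9 in NC-up (-0.15 ± 0.08 SE, adjusted p = 0.195 by limma). Its relative Kcnt2 (Slick) had 133, 141 and 104 in SETDB2-up, against 84.8, 66.1 and 136 in NC-up (0.45 ± 0.22 SE, adjusted p = 0.186 by limma); without NC-up library 3, which was above the others, its fold change was 0.73 (adjusted p = 0.0294), and without NC-up library 2 it was 0.22 (0.566).

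The members that differed by at least 2-fold were both scarce and uncalled. Kcnrg, which encodes a suppressor of Kv channel assembly, had 27.5, 17.3 and 23.2 in SETDB2-up, against 8.48, 11.5 and 10.7 in NC-up (1.06 ± 0.43 SE, adjusted p = 0.0989 by limma), with no overlap. It lies under the opposite-strand gene Dleu2, which has at least 4 times its value and stood at 0.28 ± 0.21 (SE), so its reads are uncertain. Kcne4, which encodes a single-span subunit that suppresses several Kv channels, had 27.5, 22.4 and 15.2 in SETDB2-up, against 86.9, 39.3 and 24.1 in NC-up (-1.01 ± 0.40 SE, adjusted p = 0.0891 by limma). NC-up library 1 was far above the other 5, and without it the fold change was -0.53 (adjusted p = 0.395). Without NC-up library 3 it was -1.43 (adjusted p = 0.0249), and by DESeq2 -1.20 (adjusted p = 0.0474). Kcne1l, the other KCNE gene measured, stood at -0.30 ± 0.34 (SE).

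Around the channels, 10 lists of partners and potassium handling genes held 61 tested genes, of which 5 rose and 7 fell. These 12 are 19.7% of the 61, beside 16.4% of all genes tested, so the counts by list that follow describe single genes and set no list apart. Of the Kv4 partners Dpp6 and Dpp10, transmembrane proteins related to dipeptidyl peptidases, Dpp10 rose (1710.0, 1727 and 1749 in SETDB2-up, against 1329.5, 1329 and 1588 in NC-up; log2 fold change 0.29 ± 0.07 SE, adjusted p = 0.0102 by limma). Of the 14 genes of the axonal Kv1 complex, 2 rose, the scaffold Dlg2 (PSD-93; 0.28 ± 0.06 SE, adjusted p = 0.00478 by limma) and the LGI1 receptor Adam22 (0.24 ± 0.07 SE, adjusted p = 0.0213 by limma). Of the 5 Kv2 partners, 2 fell: Amigo3, an adhesion protein related to the Kv2 subunit AMIGO1 (-0.31 ± 0.06 SE, adjusted p = 0.00262 by limma), and Vapa, which tethers Kv2 channel clusters to the endoplasmic reticulum (-0.19 ± 0.06 SE, adjusted p = 0.0311 by limma). In each of these genes the groups did not overlap. The Dpp10 call was lost without NC-up library 2 (0.25, adjusted p = 0.0624), that of Adam22 without NC-up library 1 (0.15, 0.131) or SETDB2-up library 1 (0.21, 0.118) or 2 (0.23, 0.0658), and that of Vapa when any single library other than SETDB2-up library 3 was left out (-0.21 to -0.17, adjusted p = 0.0538 to 0.149).

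Of the 8 genes of potassium-chloride cotransport and its kinases, 2 rose and 2 fell. Stk39, the SPAK kinase that phosphorylates the cotransporters, had 5292, 5929 and 4857 in SETDB2-up, against 6653, 6907 and 6841 in NC-up (-0.35 ± 0.06 SE, adjusted p = 0.00134 by limma). Its upstream kinase Wnk1 rose (0.19 ± 0.06 SE, adjusted p = 0.0321 by limma), while Slc12a4 (KCC1) fell (-0.25 ± 0.08 SE, adjusted p = 0.0321 by limma). All SETDB2-up libraries of Stk39 were lower, by a wide margin. The Wnk1 call was lost without SETDB2-up library 1 (0.18, adjusted p = 0.115) or 2 (0.15, 0.158) or NC-up library 1 (0.19, 0.0835) or 3 (0.16, 0.131). Slc12a4 lost its call without SETDB2-up library 1 (-0.20, adjusted p = 0.177) or 2 (-0.26, 0.0697) or NC-up library 1 (-0.25, 0.0619) or 2 (-0.19, 0.148). Among the 13 sodium-potassium pump genes Fxyd7, a regulator of the pump in neurons, fell (2297, 2551 and 2562 in SETDB2-up, against 2994, 3111 and 2990.0 in NC-up; -0.30 ± 0.06 SE, adjusted p = 0.00301 by limma).

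Of the 6 genes of the REST repressor complex, which silences neuronal genes in other cells and has potassium channel genes among its known targets, 2 fell. Rcor2, a REST corepressor, had 165, 183 and 178 in SETDB2-up, against 317, 284 and 279 in NC-up (-0.74 ± 0.12 SE, adjusted p = 0.000519 by limma), and the groups stood far apart. Ehmt2, the H3 lysine 9 methyltransferase G9a, had 2133, 2194 and 2333 in SETDB2-up, against 2527, 2669 and 2522 in NC-up (-0.21 ± 0.06 SE, adjusted p = 0.022 by limma). Its call was lost without SETDB2-up library 1 (-0.18, adjusted p = 0.118) or 2 (-0.21, 0.0773) or NC-up library 2 (-0.19, 0.102). Rest itself did not pass, at 0.08 ± 0.11 (SE, adjusted p = 0.637 by limma). No call came from limma among the BK gamma subunits, the sulfonylurea receptors, the calmodulins and anchors of KCNQ and SK channels, or the other potassium-permeable channels, 13 genes in all, of which 4 were higher at an unadjusted p under 0.05 and 0 passed by edgeR. By DESeq2 3 of them were higher, among them Ank2, an axonal ankyrin (adjusted p = 0.0311).

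The potassium channel genes that rose and those that fell differed in base composition and size. Transcript GC content ran from 39.3% to 49.6% (median 40.6%) in the 6 that rose, and in those that fell it was 44.3% for Kcnmb4 and 54.7% to 69.4% for the other 6. The genes that rose spanned 19.8 to 1136 kb (median 432.9 kb) and those that fell 7.50 to 65.6 kb (median 51.4 kb). The median span was 39.7 kb over the members and 22.4 kb over all genes tested. Across the 82 members the log2 fold change and GC content had a Pearson correlation of -0.60 and a Spearman correlation of -0.65, and across 15507 tested genes with a GC value -0.40 and -0.54. With gene span the correlations were 0.36 and 0.38 over the members and 0.18 and 0.24 over all. After the GC correction described below, the Spearman correlations with span were 0.19 over the members and 0.08 over all. These genes share the same 6 libraries and are not independent replicates.

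The same pattern held by GC class over all genes. In the third of tested genes with the lowest GC content (up to 46.8%), 5 of 23 members rose and 1 fell (21.7% and 4.35%), beside 19.1% and 1.86% of all genes of that class. Above 53.1% GC, 0 of 38 members rose and 6 fell (15.8%), beside 0.406% and 19.3% of all genes there. In the middle class 1 of 21 members rose (4.76%) and 0 fell, beside 4.59% and 4.37% of all genes there. From low to high GC the median log2 fold changes were 0.21, 0.07 and -0.18 over the members. Over all genes they were 0.16, 0.02 and -0.15.

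**Figure D4:**
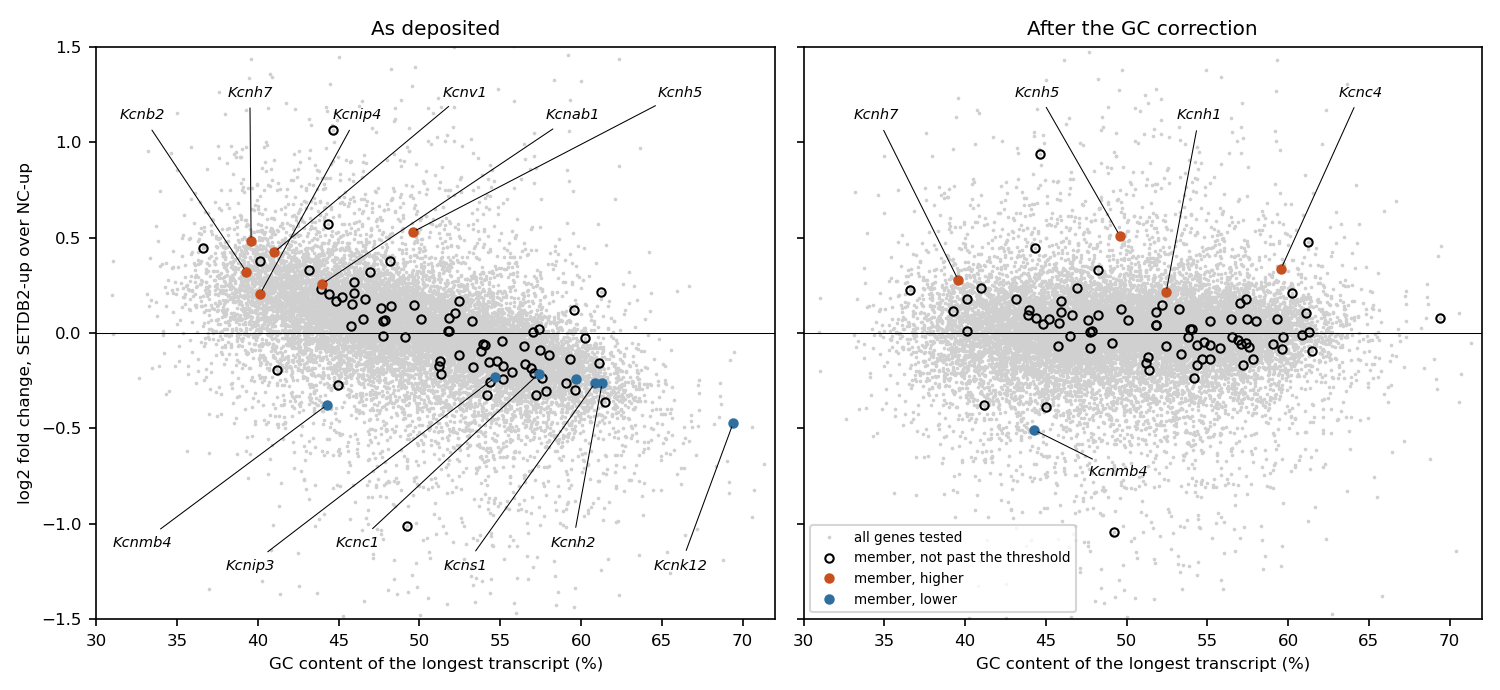
Log2 fold change, SETDB2-up over NC-up, against the GC content of the longest transcript in percent, before (left) and after (right) the trend on GC content was taken out, for the potassium channel genes over all tested genes in grey. On the left the members that rose lie at 39.3% to 49.6% GC and those that fell at 54.7% or above except Kcnmb4; on the right 5 members pass.

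After a smooth trend on GC content was taken out of each library, 5 members passed, 6.10% beside 6.07% of all genes: 4 were higher (2.12% of all genes) and 1 was lower (3.96% of all genes). Kcnh7 (0.28 ± 0.06 SE, adjusted p = 0.00929 by limma), Kcnh5 (0.51 ± 0.12 SE, adjusted p = 0.0166) and Kcnmb4 (-0.51 ± 0.10 SE, adjusted p = 0.00677) were shared with the 13, and the other 10 calls were lost. Kcnc4 (0.34 ± 0.05 SE, adjusted p = 0.000784) and Kcnh1 (0.21 ± 0.06 SE, adjusted p = 0.0477) were added, both higher. Kcnh2 then stood at 0.00 (adjusted p = 0.972), Kcnk12 at 0.08 (0.713), Kcns1 at -0.01 (0.959), Kcnc1 at -0.05 (0.671) and Kcnip3 at -0.14 (0.117). Of the genes that rose, Kcnab1 stood at 0.12 (0.361), Kcnb2 at 0.12 (0.48), Kcnv1 at 0.24 (0.323) and Kcnip4 at 0.01 (0.954). In the partner lists Stk39 (-0.38, adjusted p = 0.00109), Rcor2 (-0.47, 0.0289) and Vapa (-0.35, 0.00126) were among the 4 genes that then passed, all lower, and none was higher by limma (6 at an unadjusted p under 0.05). What part GC content has in these values was not tested further.

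The SETDB2-up libraries were not alike in these genes. Library 3 was the nearest to the NC-up mean in 9 of the 13 called members (69.2%, beside 58.2% of all called genes), library 2 in 4 and library 1 in 0. Markers of liver summed to 3194, 7399 and 120.5 normalised reads in SETDB2-up libraries 1 to 3, against 79.5, 67.0 and 83.1 in NC-up, with 11 of 11 tested markers higher and Alb, Serpina1d, Fga, Fgb and Apoa1 at 0 in every NC-up library. Without SETDB2-up libraries 1 and 2, the lone library 3 being assumed to vary like NC-up, 1 member passed, Kcnab1 (0.37, adjusted p = 0.0469 by limma), beside 2.73% of all genes. Kcnh7 stood at 0.35 (adjusted p = 0.0523) and Kcnh2 at -0.21 (0.145), Kcnh5 at 0.26 (0.54), Kcnmb4 at -0.37 (0.28) and Kcnb2 at 0.04 (0.939). Their part in the results was not tested beyond this.

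Leaving out SETDB2-up library 3 gave 8 higher and 11 lower members, and leaving out library 1 gave 1 and 1, Kcnh7 (0.43) and Kcnh2 (-0.22), beside 20.4% and 6.60% of all genes. Without SETDB2-up library 2 there were 3 higher and 5 lower members, while 1575 genes were called in all. Without NC-up library 2 there were 4 higher and 2 lower members, while 1611 genes were called in all. With every library kept 2690 genes were called. Calls over all genes thus became more without SETDB2-up library 3 and fewer in the other cases given here, as among the members. These counts do not set the members apart. Kcnh7 and Kcnh2 passed with each single library left out. Sensory neuron markers were present in full (15 of 15) and summed to 501662 to 523395 in SETDB2-up libraries and 505785 to 531236 in NC-up libraries. Of these, Scn9a rose and Rbfox3 and Pou4f1 fell. Myelinating Schwann cell markers summed to 277654 to 312816 in SETDB2-up and 309719 to 323519 in NC-up, with 3 of 10 lower. Markers of fibroblasts (5 of 9), skeletal muscle (4 of 9) and keratinocytes (5 of 6) were also lower, and their part in the potassium channel values was not tested.

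**Figure D5:**
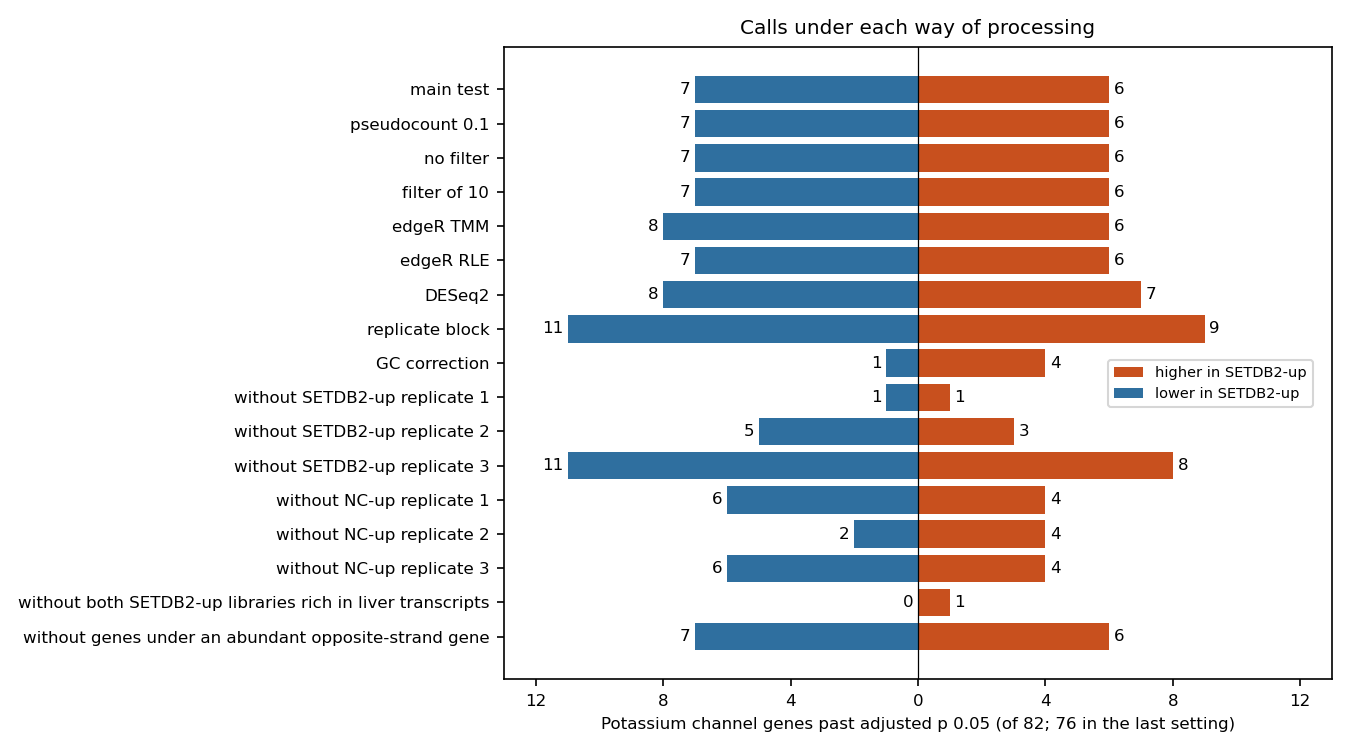
Number of potassium channel genes higher (right, orange) and lower (left, blue) in SETDB2-up at an adjusted p under 0.05, in the test reported (top) and under each alternative. The counts stand at 6 higher and 7 lower in the test reported, are 1 and 1 without SETDB2-up library 1, and are 8 and 11 without library 3.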

How the data were processed

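Poly-A RNA of mouse trigeminal ganglion was extracted with TRIzol and sequenced from strand-specific libraries as paired reads, per the labels' protocols. FastQC, HISAT2 and GRCm38 were used, per the submitters' processing notes; the sources used here do not name the read counter, its use of strand, the annotation, how factors were set or any filter. The deposited values are a normalised signal per gene: counts divided by 1 factor per library, since 100% of them are whole multiples of it (tolerance 0.001 read).

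The values being normalised, limma (3.58.1, R 4.3.3, with trend) was run on log2(value + 1) over the 16387 genes with at least 1 in at least 3 libraries (28 removed), SETDB2-up minus NC-up, with Benjamini-Hochberg adjustment over all and a threshold of 0.05. This scale understates changes of low genes. Exon length and GC came from GENCODE M21 transcripts, which matched all 82 members and 94.6% of genes. Reads sum to between 19334997 and 23501386 per library, and 3 libraries a group limit the precision. The fits were tested on simulated data, where limma called 44% of 50 genes changed 1.25-fold and 72% of 50 changed 1.5-fold.

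Alternatives were a pseudocount of 0.1, no filter, a filter at 10, edgeR (4.0.16) quasi-likelihood on the recovered reads (2680 genes called with TMM, beside 2690 by limma) and with RLE factors, DESeq2 (1.42.0), a replicate block, a loess GC correction (span 0.5), each library left out, SETDB2-up libraries 1 and 2 left out, and genes under a 4-fold stronger opposite-strand gene left out. The genes named are the called members, the most abundant per kb and smallest p of each role, the largest uncalled changes, a set known from sensory neurons or migraine, and called partners; others were chosen after their values were seen, and a few genes that the rule would name are left out of the text. The members and lists were chosen with earlier results of these data known.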

Additional observations from a re-analysis of the deposited data

How the results depend on the processing

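A pseudocount of 0.1, other filters and edgeR with TMM or RLE factors kept the counts of higher and lower potassium channel genes within 1.5 times the reported 6 and 7, and the 13 called genes passed by edgeR with TMM and by DESeq2. Whether same-numbered libraries pair cannot be told. Their correlations were small (0.0383, 0.0359 and 0.0484), although each library correlated best with its own number. The other pairs ran from -0.0347 to -0.00557. These are correlations of deviations from group means, which sum to 0 within a group. The signs of the pairs are thus tied to one another and are not separate evidence. With the replicate block the counts were 9 higher and 11 lower, with 3618 genes called in all and 11 partner genes higher. DESeq2 gave 10 partner genes higher. The GC correction gave 1 lower member, 942 genes in all, 0 partner genes higher (6 at an unadjusted p under 0.05) and 4 lower, a median log2 fold change of 0.0422 over the members, and Setdb2 at 0.49 (adjusted p = 0.141). Without SETDB2-up libraries 1 and 2, limma gave 1 higher and 0 lower members (5 lower at an unadjusted p under 0.05), 447 genes in all, 0 partner genes higher (6 unadjusted) and 1 lower, and Setdb2 at 0.65 (adjusted p = 0.423); no other tool was run in these settings.

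Over the libraries left out in turn the counts ran from 1 to 8 higher and 1 to 11 lower members, 1082 to 3335 genes in all, 2 to 10 partner genes higher and 4 to 11 lower, the median from -0.0369 to 0.0156 and Setdb2 from 0.56 to 0.71. The GC correction turned the sign of several genes. Among them were Ehmt2 (0.0350), Kcnab2 (0.0626), Kcnh2 (0.00462), Kcnip2 (0.0645), Kcnj12 (0.0716), Kcnk10 (-0.0144), Kcnk12 (0.0813) and Kcnk4 (0.0209). Without SETDB2-up libraries 1 and 2 the sign also turned for several genes. They included Kcnd3 (0.0479), Kcnh6 (-0.0821), Kcnip2 (0.106), Kcnj12 (0.0108), Kcnj8 (0.10), Kcnk10 (-0.0772), Kcnma1 (-0.0675) and Kcnq3 (-0.0394). Single libraries left out turned some genes near 0. Among these, Kcnd3 ran from -0.0615 to 0.0195, Kcnj8 from -0.32 to 0.0140 and Kcnk1 from -0.0306 to 0.0552. Kcnk4 ran from -0.20 to 0.0464, Kcnn1 from -0.11 to 0.0575 and Kcnq5 from -0.0896 to 0.0310. The cause of these changes was not tested. With 3 libraries a group, a gene that did not pass is not shown to be unchanged.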

Other observations

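Kcnq1ot1, the noncoding RNA transcribed against the cardiac and epithelial channel gene Kcnq1, had 296, 342 and 170.4 normalised reads in SETDB2-up, against 226, 237 and 204 in NC-up (log2 fold change 0.22 ± 0.18 SE, limma adjusted p = 0.444). SETDB2-up library 3 was the lowest of the 6. Kcnq1 itself was low, at 48.4, 33.6 and 22.3 in SETDB2-up and 32.8, 29.7 and 55.4 in NC-up, and lies opposite a gene with more than 4 times its value.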
